A study of Mus musculus with 6 samples.

Results

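The respiratory chain of mitochondria was examined through its nuclear genes in stria vascularis, the K+-secreting epithelium on the lateral wall of the cochlea. Members were all genes whose symbol in the platform annotation begins with Nduf, Sdha to Sdhd, Uqcr, Cox4i, Cox5, Cox6, Cox7, Cox8, Cycs or Atp5. This gave 95 of 18193 genes on the arrays, measured by 189 of 45037 probe sets. They comprised 36 genes of complex I, 4 of complex II, 8 of complex III, 17 of complex IV, 17 of complex V, 1 of cytochrome c and 12 assembly factors whose symbols begin with Ndufaf or Sdhaf. The stria vascularis of Slc26a4-/- mice, which lack the anion exchanger pendrin in the whole animal, was set against that of Slc26a4+/+ mice. All mice were 129S6 adults of about 5 months. Each of the 6 Affymetrix mouse 430 2.0 arrays, 3 for either genotype, carried the RNA of 2 mice, so an array stands for a pool and not for a single mouse.

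The respiratory chain sits in the inner mitochondrial membrane. Complex I takes electrons from NADH and complex II takes them from succinate. Ubiquinone carries them to complex III, and cytochrome c carries them on to complex IV, which reduces oxygen to water. Complexes I, III and IV pump protons, and complex V, the ATP synthase, uses the returning protons to make ATP. A few subunits are encoded by mitochondrial DNA and the rest by nuclear genes. The members do not cover all of these nuclear genes. Cyc1 of complex III lies outside the symbols of the rule, and probe sets with several symbols were not counted. In stria vascularis, marginal cells are packed with mitochondria, and their Na,K-ATPase spends ATP to drive K+ secretion.

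Values were GCOS signals, a scaled intensity of a probe set on a linear scale, and a gene was represented by whichever of its probe sets was brightest on average over the 6 arrays. Background was set on each array from 44 probe sets of olfactory receptors, genes with no known role in this tissue, as their 95th percentile, and lay at signals of 187.1 to 213.8 in Slc26a4-/-, against 199.7 to 319.2 in Slc26a4+/+. The signals of Slc26a4 itself were 520.2, 717 and 618 in Slc26a4-/-, against 1354, 1262 and 793 in Slc26a4+/+ (adjusted p = 0.119 from limma, log2 fold change -0.85, SE 0.23). Its probe set cannot check the genotype labels, since its position relative to the deletion is not stated. Slc26a4+/+ replicates 2 and 3 stood apart in the 3′ over 5′ ratios of control probe sets. The 3′ over 5′ ratio of the Gapdh control probe sets, which is higher in degraded RNA, was 3.34 to 3.8 in Slc26a4-/-, against 2.25, 7.19 and 10.5 in Slc26a4+/+ replicates 1, 2 and 3. The actin ratio was 1.78 to 2.25 in Slc26a4-/-, against 1.91, 4.1 and 3.88 in Slc26a4+/+. The pools also differed in markers of sex. The probe sets of Xist, which coats the silenced X chromosome of females, had a mean signal of 4004 to 4112 in Slc26a4-/-, against 294.5, 2458 and 401.2 in Slc26a4+/+ replicates 1, 2 and 3. The genotypes did not overlap in Xist.

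Respiratory chain genes were readily detected. Of the 95 members, 85 were above background on all 6 arrays and 87 on at least 2 arrays of a genotype. The 7 members below background on every array were Ndufb1, Ndufb4 and Ndufa4l2 of complex I, Cox6b2, Cox7b2 and Cox7c of complex IV, and the assembly factor Ndufaf6. For Ndufb4 this holds for the 1 probe set assigned to it alone, and 2 probe sets that it shares with Ndufb4b and Ndufb4c, not counted as members, were above background on all 6 arrays. A signal below background describes the probe set, and for Ndufb1, Cox7c and the others it does not show that the gene is silent. A log2 fold change, always Slc26a4-/- over Slc26a4+/+, was then estimated for every probe set by limma, with Benjamini-Hochberg adjustment over all of them and a threshold of 0.05. A single member passed. Cox7a1 of complex IV fell in Slc26a4-/-, which is 1 of 95 members beside 0.803% of all genes. No member gene was higher, beside 1.88% of all genes. Among the 189 probe sets, 1 was lower and 0 were higher, beside 0.54% lower and 1.19% higher among all probe sets.

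Below that threshold most members pointed the same way. The fold change was negative for 77 of 95 members (81.1%) and for 53.0% of all genes, and its median was -0.20 over the members and -0.03 over all genes. With the Xist signal added to the fit the median of the members was -0.41. Xist did not overlap between the genotypes, so this fit cannot separate sex from genotype. By complex, the median was -0.24 for complex I, 0.05 for complex II, -0.25 for complex III, -0.21 for complex IV and -0.16 for complex V. An unadjusted p under 0.05 was reached downward by 9 members (9.47%), beside 6.42% of all genes, and upward by 0 members, beside 8.48%. By the methods' t-test at the same unadjusted threshold, 6 members (6.32%) were lower, beside 5.23% of all genes, and 1 member was higher, beside 5.53%. All Slc26a4-/- arrays lay below all Slc26a4+/+ arrays in 15 members (15.8%), beside 9.73% of all genes. They lay above in 1 member, Ndufb1, which was under background on every array, beside 11.2% of all genes. In bulk RNA, fewer cells of a type and less RNA per cell cannot be told apart.

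**Figure D1:**
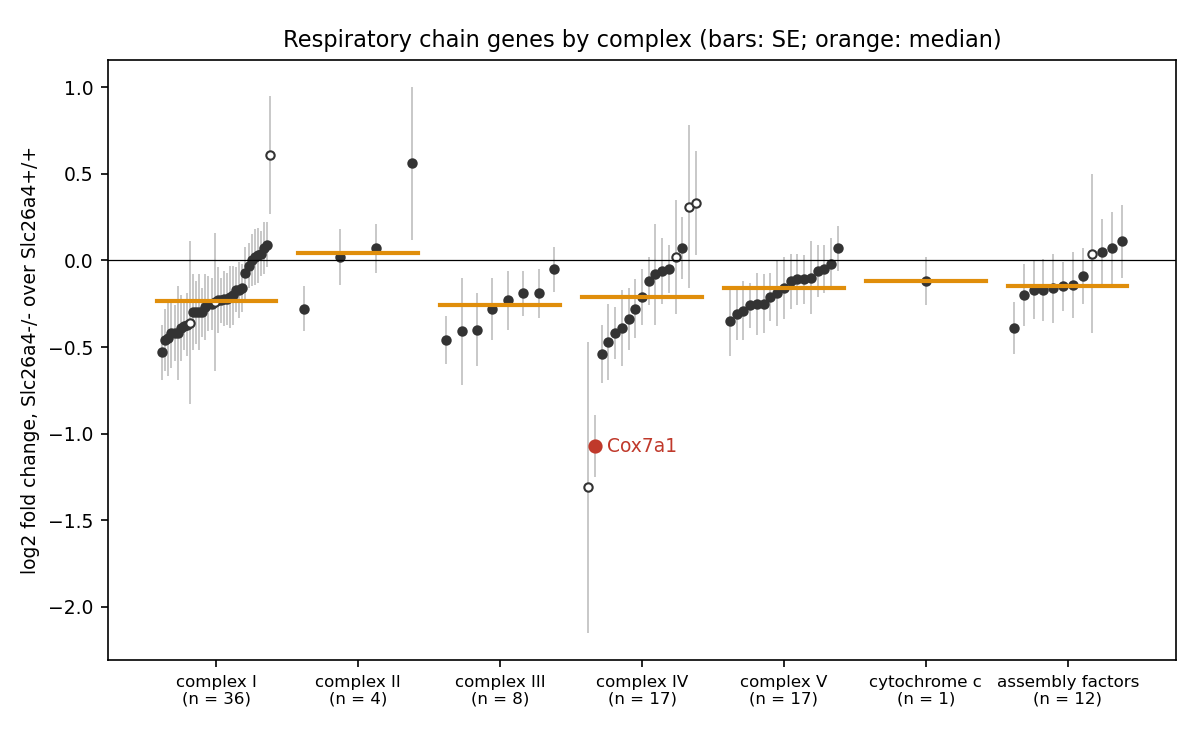
The log2 fold change of each of the 95 members, Slc26a4-/- over Slc26a4+/+, is plotted by complex with its SE from limma. The orange line is the median of the complex, open circles are genes above background on fewer than 2 arrays of each genotype, and the red point is Cox7a1, the member that passed the threshold.

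The study itself called a change by the ratio of the mean signals, taken as an average over a gene's probe sets, above 1.3 in either direction. By the ratio alone, 18 members (18.9%) were lower, beside 21.7% of all genes, and 1 member was higher, beside 16% of all genes. The share of members called lower by this ratio was thus no larger than the share of all genes. The shares cover unlike sets, since 6799 of the 18193 genes but only 7 of the 95 members were below background on all arrays. The study's filter on present calls was not applied, so dim probe sets count in both, and no share over detected genes was taken.

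Complex IV, cytochrome c oxidase, held the member that passed. Cox7a1 encodes the heart and skeletal muscle isoform of subunit VIIa. Its signals were 1392, 1654 and 1318 in Slc26a4-/-, against 2432, 3066 and 3737 in Slc26a4+/+. The highest Slc26a4-/- array was below the lowest Slc26a4+/+ array. The mean was 1454 ± 176 in Slc26a4-/-, against 3078 ± 653 in Slc26a4+/+ (SD, n = 3 arrays each), with a log2 fold change of -1.07 (adjusted p = 0.0171 from limma, SE 0.18). The gene has 1 probe set on the arrays. The fold change stayed between -0.92 and -1.23 when a single Slc26a4+/+ array was left out. Without both Slc26a4+/+ replicates 2 and 3, which leaves 1 Slc26a4+/+ array, it was -0.75. The call was lost when any single Slc26a4-/- array was left out, with log2 fold changes of -1.04, -1.16 and -1.0 and adjusted p of 0.1, 0.0528 and 0.116 from limma, and without Slc26a4+/+ replicate 2, with -1.06 and 0.081. It was also lost where limma's prior spread did not depend on brightness (-1.07, adjusted p = 0.218), with Xist added to the fit (-1.15, adjusted p = 0.354) and by the methods' t-test (-1.07, adjusted p = 0.545).

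The other forms of subunit VIIa gave smaller differences. Cox7a2, the form found in most tissues, had 16301, 16239 and 16209.9 in Slc26a4-/-, against 16276, 20951 and 25351 in Slc26a4+/+, with a log2 fold change of -0.34 (adjusted p = 0.512, SE 0.18). Its Slc26a4+/+ replicate 1 lay within the Slc26a4-/- values, and replicates 2 and 3 were above them. Cox7a2l, a related protein that joins complexes III and IV into supercomplexes, had 4529, 5023 and 4428 in Slc26a4-/-, against 5359, 7466 and 6014 in Slc26a4+/+. On this probe set the groups did not overlap, and the log2 fold change was -0.42 (adjusted p = 0.298, SE 0.15). Other probe sets of Cox7a2l, with -0.48 and -0.24, overlapped between the genotypes.

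Cox7a1 was compared with the other subunit isoforms that are restricted to certain tissues. Cox8b, like Cox7a1 a heart and skeletal muscle isoform, had 2777, 2729 and 2804 in Slc26a4-/-, against 2122, 3285 and 3432 in Slc26a4+/+. The Slc26a4-/- values lay inside the Slc26a4+/+ range, and the log2 fold change was -0.06 (adjusted p = 0.941, SE 0.19). Cox8c, an isoform known from testis, was above background on all arrays, with 977 to 1275 in Slc26a4-/-, against 961 to 1317 in Slc26a4+/+. The muscle isoform Cox6a2 exceeded background on 1 array, and Cox4i2, an isoform known from lung, on 2, all of them Slc26a4-/-. Background was higher, at 269.5 and 319.2, on Slc26a4+/+ replicates 2 and 3. The Cox4i2 signals overlapped, with 177, 271 and 234 in Slc26a4-/-, against 176, 252 and 298 in Slc26a4+/+. The testis isoforms Cox6b2 and Cox7b2, and Ndufa4l2, a paralogue of Ndufa4 that hypoxia induces, were not above background on any array. Genes of skeletal muscle fibres were not detected either. Of 11 such markers, among them Acta1, Ckm, Mb and Myh4, 0 were above background on 2 arrays of a genotype, and their summed signal was 506 to 818 in Slc26a4-/-, against 562 to 1183 in Slc26a4+/+.

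Cox8a, the common form of subunit VIII, had 4141, 3894 and 3398 in Slc26a4-/-, against 4392, 6218 and 6179 in Slc26a4+/+. The groups did not overlap, though Slc26a4+/+ replicate 1 was close to the Slc26a4-/- arrays, and the log2 fold change was -0.54 (adjusted p = 0.2, SE 0.17). A second probe set of Cox8a gave the same -0.54 with 2588, 2251 and 2049.7 in Slc26a4-/-, against 2569, 3546 and 4058 in Slc26a4+/+, with overlap at replicate 1. In the core subunits IV and V, Slc26a4+/+ replicates 2 and 3 were again the highest arrays. Cox5b, which binds zinc, had 14648, 15243 and 14389.5 in Slc26a4-/-, against 14679, 20610.5 and 28234 in Slc26a4+/+ (log2 fold change -0.47, SE 0.22, adjusted p = 0.443). Cox4i1 and Cox5a had log2 fold changes of -0.21 (adjusted p = 0.677) and -0.12 (adjusted p = 0.805). In all, 13 of 17 members of complex IV (76.5%) were negative, beside 53.0% of all genes. An unadjusted p under 0.05 was reached downward by 3, beside 6.42% of all genes, and 1 passed, beside 0.803%.

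**Figure D2:**
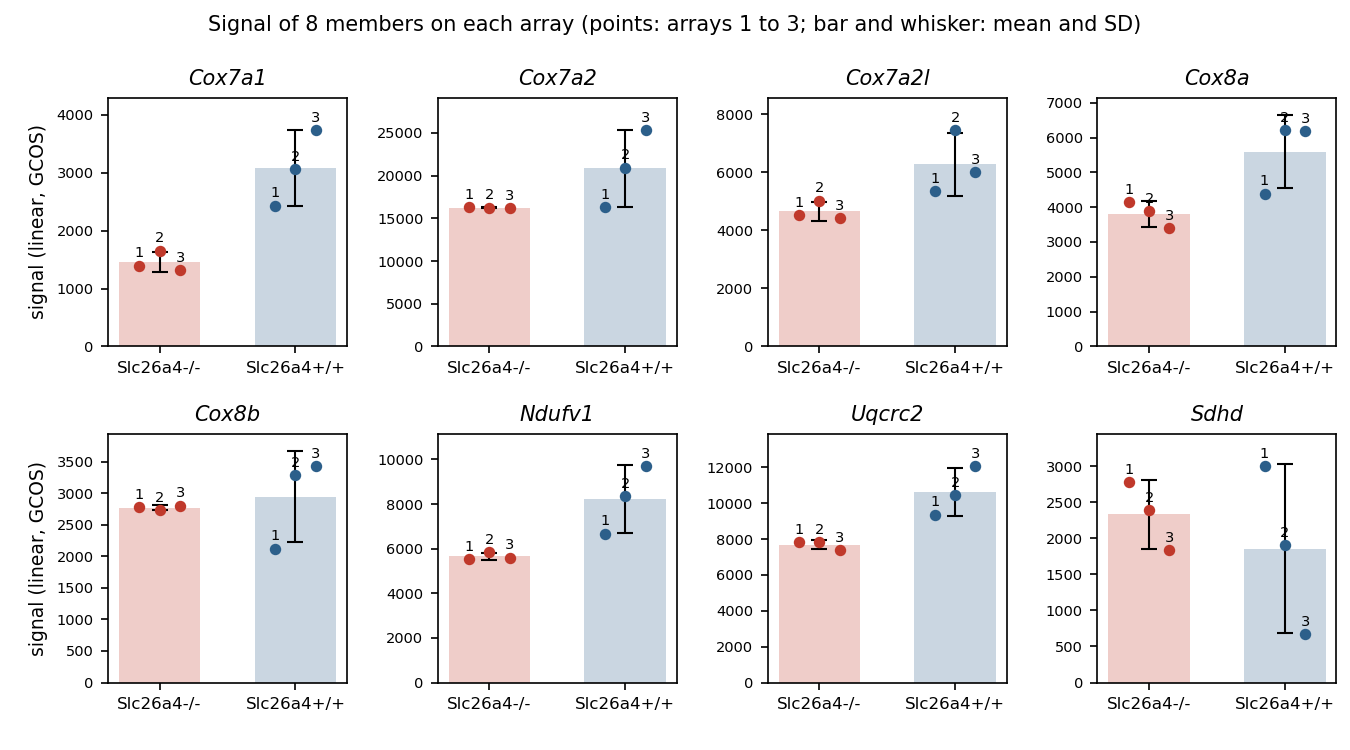
Signals of 8 members are plotted for arrays 1 to 3 of each genotype, Slc26a4-/- on the left, with the mean as a bar and the SD as a whisker. Of these 8, Cox7a1 shows the widest gap between the genotypes, with a ratio of the means of 0.473. In all of them but Sdhd, and so in Cox7a1 too, array 1 of Slc26a4+/+ is the lowest Slc26a4+/+ array.

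Promoters were read to set the members beside the sequences that regulators of mitochondrial genes are known to bind. The sequences came from RefSeq on GRCm38.p6, 250 bases before to 50 bases after the start of a gene, and 79 of the 95 members had an entry. Cox7a1 is shown because it is the member that passed, and Cox8a and Cycs because they hold motifs of different factors. Capitals mark a motif, and Cox7a1 holds none of those searched.
Cox7a1: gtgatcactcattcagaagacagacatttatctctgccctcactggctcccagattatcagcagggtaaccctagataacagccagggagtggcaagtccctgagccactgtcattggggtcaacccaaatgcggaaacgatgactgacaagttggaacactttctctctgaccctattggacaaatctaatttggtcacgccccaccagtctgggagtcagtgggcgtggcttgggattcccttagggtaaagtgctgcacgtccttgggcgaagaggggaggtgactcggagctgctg
Cox8a: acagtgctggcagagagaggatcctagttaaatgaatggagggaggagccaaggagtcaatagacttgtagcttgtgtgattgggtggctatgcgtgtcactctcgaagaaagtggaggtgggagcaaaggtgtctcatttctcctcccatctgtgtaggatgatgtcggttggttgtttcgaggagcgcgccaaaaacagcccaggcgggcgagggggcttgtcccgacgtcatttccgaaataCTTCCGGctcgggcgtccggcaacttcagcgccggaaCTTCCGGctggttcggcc
Cycs: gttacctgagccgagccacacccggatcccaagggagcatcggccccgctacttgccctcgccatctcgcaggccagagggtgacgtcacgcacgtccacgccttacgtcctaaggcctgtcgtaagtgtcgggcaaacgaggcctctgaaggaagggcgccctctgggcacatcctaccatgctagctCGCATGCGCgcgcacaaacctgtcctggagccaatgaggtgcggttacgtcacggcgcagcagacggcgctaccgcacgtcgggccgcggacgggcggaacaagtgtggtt
The Cox7a1 window is chr7:30183921-30184220 on the plus strand, that of Cox8a is chr19:7217567-7217866 on the minus strand and that of Cycs is chr6:50566520-50566819 on the minus strand. The letters searched, on both strands, were GCGCATGCG for NRF1, CCGGAAG for ETS factors such as GABP, and AAGGTCA for estrogen-related receptors. No motif contains another, though the last letters of the ETS motif, AAG, can begin the last one. Cox8a holds the ETS motif at 2 places, both as CTTCCGG, and Cycs holds the NRF1 motif at 1 place.

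The NRF1 motif lay in 10 of the 79 member promoters (12.7%), among them Cycs, Uqcrc1, Ndufa8 and Cox6a1, beside 1.95% of all 27025 genes with a promoter and 2.61% of the protein-coding ones. The ETS motif lay in 22 (27.8%), among them Cox8a, Sdhb, Sdhd, Ndufs3 and Ndufs8, beside 9.93% and 12.9%. The motif of estrogen-related receptors lay in 8 (10.1%), beside 5.38% and 4.73%. The median fold change was negative with and without each motif. It was -0.18 for the 10 with the NRF1 motif and -0.21 for the 69 without, -0.17 for the 22 with the ETS motif and -0.22 for the 57 without, and -0.22 for the 8 with the motif of estrogen-related receptors and -0.20 for the 71 without.

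Complex I, the NADH dehydrogenase, is the largest complex and gave the most members. Of its 36 genes, 30 (83.3%) were negative, beside 53.0% of all genes. An unadjusted p under 0.05 was reached downward by 4, beside 6.42% of all genes, and none passed the adjusted threshold. Ndufv1, the subunit that binds NADH, had 5529, 5844 and 5599 in Slc26a4-/-, against 6666, 8348 and 9706 in Slc26a4+/+. All Slc26a4-/- arrays lay below all Slc26a4+/+ arrays, with a log2 fold change of -0.53 (adjusted p = 0.179, SE 0.16). Its 2 other probe sets gave -0.44 and -0.25. Ndufs7, which carries the iron-sulfur cluster nearest ubiquinone, had 5447, 5754 and 5544 in Slc26a4-/-, against 5810.0, 7965 and 9715 in Slc26a4+/+ (log2 fold change -0.46, SE 0.18, adjusted p = 0.354). The groups did not overlap, but on this probe set Slc26a4+/+ replicate 1 exceeded the highest Slc26a4-/- array only slightly. A second probe set of Ndufs7 had 3988, 4064 and 3807 in Slc26a4-/-, against 4775, 5077 and 5237 in Slc26a4+/+ (log2 fold change -0.35, SE 0.12, adjusted p = 0.279).

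The accessory subunit Ndufb10 had 3754, 4037 and 4105 in Slc26a4-/-, against 4328, 5627 and 6118 in Slc26a4+/+ (log2 fold change -0.42, SE 0.16, adjusted p = 0.302). Ndufa4, which carries a complex I name but is now counted as a subunit of complex IV, had 3521, 3661 and 3565 in Slc26a4-/-, against 4093, 5267 and 4710.1 in Slc26a4+/+ (log2 fold change -0.38, SE 0.14, adjusted p = 0.287). In both genes the groups did not overlap. Ndufs3, a core subunit of the peripheral arm, also kept the genotypes apart, with 3858, 4285 and 4231 in Slc26a4-/-, against 4799, 5079 and 4639 in Slc26a4+/+, and its log2 fold change was -0.23 (adjusted p = 0.532, SE 0.13).

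Other iron-sulfur subunits overlapped between the genotypes. Ndufs8 had 6368, 7424 and 6904 in Slc26a4-/-, against 5636, 10282 and 13508 in Slc26a4+/+, so Slc26a4+/+ replicate 1 was the lowest array of all and replicates 2 and 3 the highest (log2 fold change -0.42, SE 0.27, adjusted p = 0.608). Ndufs1, the largest subunit, had another order, with 2463, 2435 and 2589 in Slc26a4-/-, against 3818, 2954 and 2227 in Slc26a4+/+ (log2 fold change -0.23, SE 0.19, adjusted p = 0.701). There Slc26a4+/+ replicate 1 was the highest array. Ndufv2 had a log2 fold change of -0.20 (adjusted p = 0.719, SE 0.17). Over all of complex I the estimates ran between -0.53 for Ndufv1 and 0.61 for Ndufb1, which was below background.

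Complex II, succinate dehydrogenase, also serves the citric acid cycle, and its 4 nuclear genes make the whole enzyme. Sdha, the subunit that binds FAD and oxidises succinate, had 7244, 6865 and 6801 in Slc26a4-/-, against 8698, 9066 and 7684 in Slc26a4+/+. The groups did not overlap, and the log2 fold change was -0.28 (adjusted p = 0.451, SE 0.13). The iron-sulfur subunit Sdhb had 7337, 8472 and 8107 in Slc26a4-/-, against 6691, 8139 and 8015 in Slc26a4+/+ (log2 fold change 0.07, SE 0.14, adjusted p = 0.897), and the membrane anchor Sdhc gave 0.02 (SE 0.16, adjusted p = 0.977). Both overlapped between the genotypes. Sdhd, the second membrane anchor, had 2783, 2392 and 1834 in Slc26a4-/-, against 3005, 1905 and 668 in Slc26a4+/+, and its positive log2 fold change of 0.56 (adjusted p = 0.691, SE 0.44) came with an SD of 477 among the Slc26a4-/- arrays and of 1169 among the Slc26a4+/+ arrays. A second probe set of Sdhd had 1168, 1131 and 1140.3 in Slc26a4-/-, against 1117, 852 and 691 in Slc26a4+/+, without overlap (log2 fold change 0.40, SE 0.19, adjusted p = 0.448). Complex II was the only complex with a positive median, over 4 genes, and no difference between complexes was tested.

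Complex III, the cytochrome bc1 complex, was negative in 8 of 8 members, beside 53.0% of all genes. Of these, 1 reached an unadjusted p under 0.05, beside 6.42% of all genes lower, and none passed. Uqcrc2, a core protein of the matrix side, had 7826, 7838 and 7380.1 in Slc26a4-/-, against 9366, 10434 and 12070.3 in Slc26a4+/+. All Slc26a4-/- arrays were lower, with a log2 fold change of -0.46 (adjusted p = 0.193, SE 0.14), and a second probe set gave -0.15 with overlapping groups. Uqcrc1, the other core protein, had 4285, 4828 and 4734 in Slc26a4-/-, against 5062, 5398 and 5344 in Slc26a4+/+. These did not overlap either, although the log2 fold change was only -0.19 (SE 0.13, adjusted p = 0.616). The Rieske iron-sulfur protein Uqcrfs1 had 4437, 4595 and 4368 in Slc26a4-/-, against 6339, 6099 and 4102 in Slc26a4+/+, with Slc26a4+/+ replicate 3 the lowest array (log2 fold change -0.28, SE 0.18, adjusted p = 0.602).

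Cycs, the cytochrome c that shuttles electrons between complexes III and IV, had 13117, 12869 and 13150.1 in Slc26a4-/-, against 12813, 14224 and 15549 in Slc26a4+/+. The log2 fold change was -0.12 (adjusted p = 0.806, SE 0.14), with Slc26a4+/+ replicate 1 the lowest array. Cyc1, the cytochrome c1 of complex III, lies outside the symbols of the rule and had 8715, 9439.9 and 9486 in Slc26a4-/-, against 10259.5, 11069 and 12893 in Slc26a4+/+. The groups did not overlap, with a log2 fold change of -0.30 (adjusted p = 0.448, SE 0.14).

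Complex V, the ATP synthase, was negative in 16 of 17 members (94.1%), beside 53.0% of all genes. All 17 were above background on 6 arrays, and none reached an unadjusted p under 0.05, beside 6.42% of all genes lower. Atp5a1, the α subunit of the catalytic head, had 9936, 9846 and 9104 in Slc26a4-/-, against 10062, 12235 and 13869 in Slc26a4+/+ (log2 fold change -0.31, SE 0.15, adjusted p = 0.477). The groups were apart, but Slc26a4+/+ replicate 1 only just so. The catalytic β subunit Atp5b had 10958, 11201 and 11121 in Slc26a4-/-, against 13169.7, 10163 and 10671 in Slc26a4+/+, with Slc26a4-/- inside the Slc26a4+/+ range (log2 fold change -0.02, SE 0.15, adjusted p = 0.974). The central stalk subunit Atp5c1 overlapped as well, with -0.21 (SE 0.14, adjusted p = 0.622). Atp5pb, the b subunit of the peripheral stalk, had 8937, 8260.5 and 8293 in Slc26a4-/-, against 9832, 10584 and 10064 in Slc26a4+/+ with no overlap (log2 fold change -0.26, SE 0.13, adjusted p = 0.478). Atp5g3, which encodes the c subunit of the membrane ring, gave -0.29 (SE 0.17, adjusted p = 0.551). Atp5o, another stalk subunit, was the member with a positive estimate, 0.07. Its second probe set gave 0.49 (SE 0.15, adjusted p = 0.194), with 2239.6, 2704 and 2863 in Slc26a4-/-, against 2057, 1838 and 1661 in Slc26a4+/+.

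The 12 assembly factors of complexes I and II, which help to build the complexes without remaining in them, had a median of -0.15. Of them, 8 (66.7%) were negative, beside 53.0% of all genes. Ndufaf4 had 1255, 1163 and 1188 in Slc26a4-/-, against 1444, 1486 and 1834 in Slc26a4+/+, without overlap (log2 fold change -0.39, SE 0.15, adjusted p = 0.306). A second probe set of Ndufaf4 gave -0.15 with overlapping groups. Ndufaf1 and Ndufaf3 gave -0.20 (SE 0.18, adjusted p = 0.747) and -0.15 (SE 0.14, adjusted p = 0.748), and none of the 12 passed.

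Over all members, the medians of the arrays did not separate by genotype. Each array was given by the median, over members, of the log2 signal minus the mean of the gene. It was -0.15, -0.05 and -0.10 for the Slc26a4-/- arrays and -0.14, 0.22 and 0.18 for the Slc26a4+/+ arrays. Slc26a4+/+ replicate 1 thus lay within the range of the Slc26a4-/- arrays, and replicates 2 and 3 lay above it. Slc26a4+/+ replicate 2 exceeded all 3 Slc26a4-/- arrays in 79 of 95 members and replicate 3 in 63, while replicate 1 did so in 26 and was below all of them in 41. As shares above all Slc26a4-/- arrays, replicates 2, 3 and 1 gave 83.2%, 66.3% and 27.4% of the members, and 35.8%, 45.5% and 26.7% of all genes.

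The order differed between sets of members. The genotypes were apart in some of them. The 12 assembly factors gave -0.10, -0.01 and -0.05 for Slc26a4-/- and 0.08, 0.12 and 0.08 for Slc26a4+/+. The 20 core subunits, a list that includes cytochrome c, gave -0.15, -0.08 and -0.11 for Slc26a4-/- and -0.05, 0.20 and 0.17 for Slc26a4+/+, with replicate 1 just above the Slc26a4-/- arrays. Complex I gave -0.14, -0.06 and -0.12 for Slc26a4-/- and -0.16, 0.26 and 0.24 for Slc26a4+/+. Complex IV gave -0.16, -0.08 and -0.08 for Slc26a4-/- and -0.18, 0.22 and 0.28 for Slc26a4+/+, and complex V gave -0.12, -0.03 and -0.11 for Slc26a4-/- and -0.16, 0.19 and 0.14 for Slc26a4+/+. In complexes I, IV and V the median of Slc26a4+/+ replicate 1 was thus lower than that of every Slc26a4-/- array. In complex III it was at -0.03, just above the highest Slc26a4-/- array at -0.05. Complex II had no such order, with -0.08, 0.15 and -0.02 for Slc26a4-/- and 0.08, 0.15 and -0.12 for Slc26a4+/+.

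**Figure D3:**
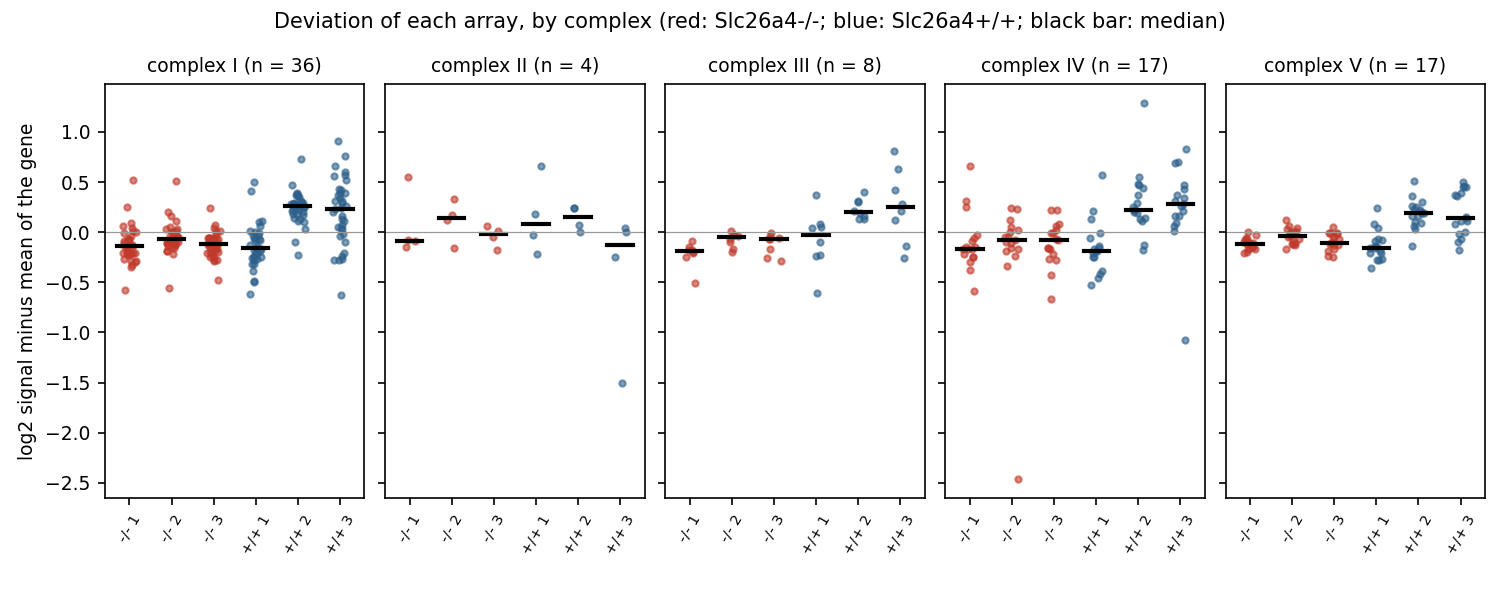
Each point is the log2 signal of a member on an array minus the mean of that gene over the 6 arrays, with a panel for each complex and a black bar at the median. Slc26a4-/- arrays are red and on the left, Slc26a4+/+ arrays are blue, and in complexes I, III, IV and V the medians of Slc26a4+/+ replicates 2 and 3 are the highest.

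These are the replicates with the high 3′ to 5′ ratios of Gapdh and actin. Without both of them, a setting chosen after seeing the data, the median of the members was 0.04. That fit holds 1 Slc26a4+/+ array, which is assumed to vary like the Slc26a4-/- arrays that give the spread, so its calls compare that array with them and not the genotypes. They took in 2 lower members (2.11%), Ndufs1 at -0.61 and Uqcrfs1 at -0.51, beside 1.33% of all genes, and not Cox7a1. Without Slc26a4+/+ replicate 1 the median was -0.28 and 17 members (17.9%) were lower, beside 2.17% of all genes. With array weights, which gave Slc26a4+/+ replicate 2 the highest weight of 2.81 and replicates 1 and 3 weights of 0.372 and 0.316, 15 members (15.8%) were lower, beside 5% of all genes. With the Gapdh ratio as a covariate the median was -0.08, and Cox7a1 remained at -0.90 (adjusted p = 0.00865 from limma). RNA quality was judged from the Gapdh and actin ratios alone, and its part in the members' shift was not tested further.

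**Figure D4:**
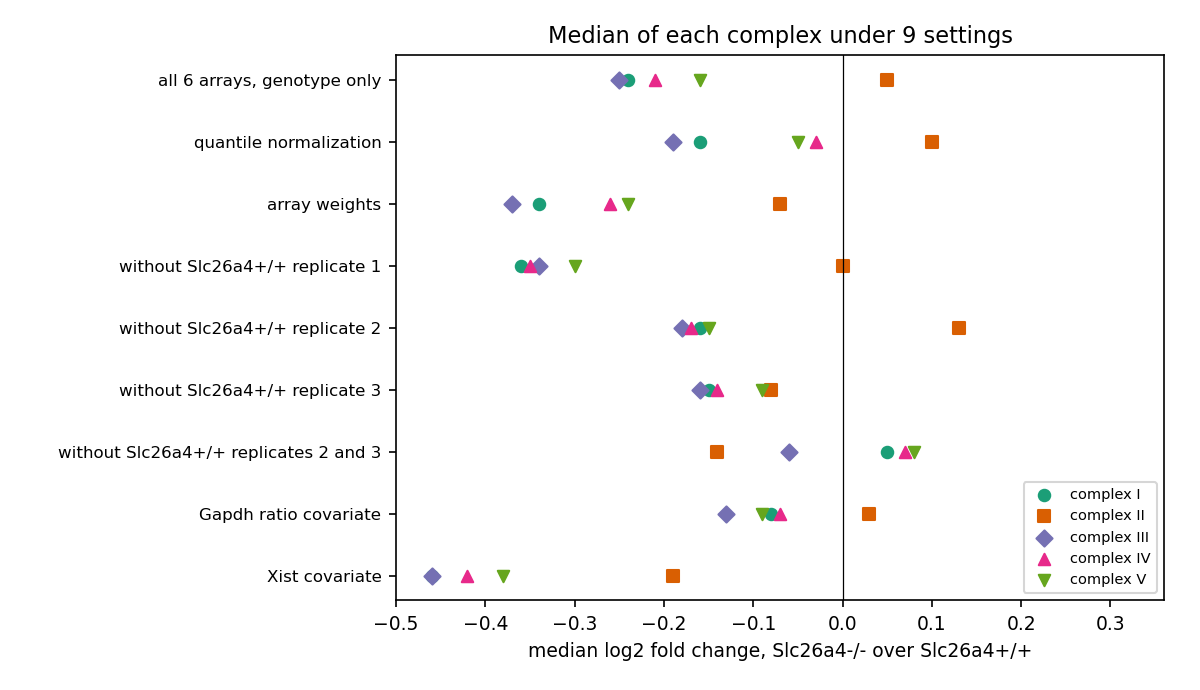
The median log2 fold change of each complex, Slc26a4-/- over Slc26a4+/+, is plotted under 9 settings of the fit. The medians of complexes I, IV and V lie below 0 except without Slc26a4+/+ replicates 2 and 3, where they are 0.05, 0.07 and 0.08, and that of complex III is below 0 throughout.

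Members were also bright, and brightness moved with the same shift. Of the 95 members, 28 had a mean log2 signal of at least 13, a signal of 8192, as did 290 other genes. In this range all 28 members and 79.0% of the other genes were negative, with medians of -0.25 for the members and -0.19 for the others. The array medians of those other genes were -0.10, -0.06 and -0.10 in Slc26a4-/-, against -0.13, 0.12 and 0.28 in Slc26a4+/+, the same order as in the members. At mean log2 signals between 12 and 13 the 26 members had a median of -0.23 and the 637 other genes -0.04. Between 11 and 12 the 16 members had -0.14 and the 1345 other genes 0.00. At these lower signals the other genes thus lay closer to 0 than the members, and Slc26a4+/+ replicate 2 was at 0.25 and 0.26 in the members and at 0.08 and 0.05 in the others. The ranges of signal were chosen after seeing the data, and the part of brightness was not tested.

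**Figure D5:**
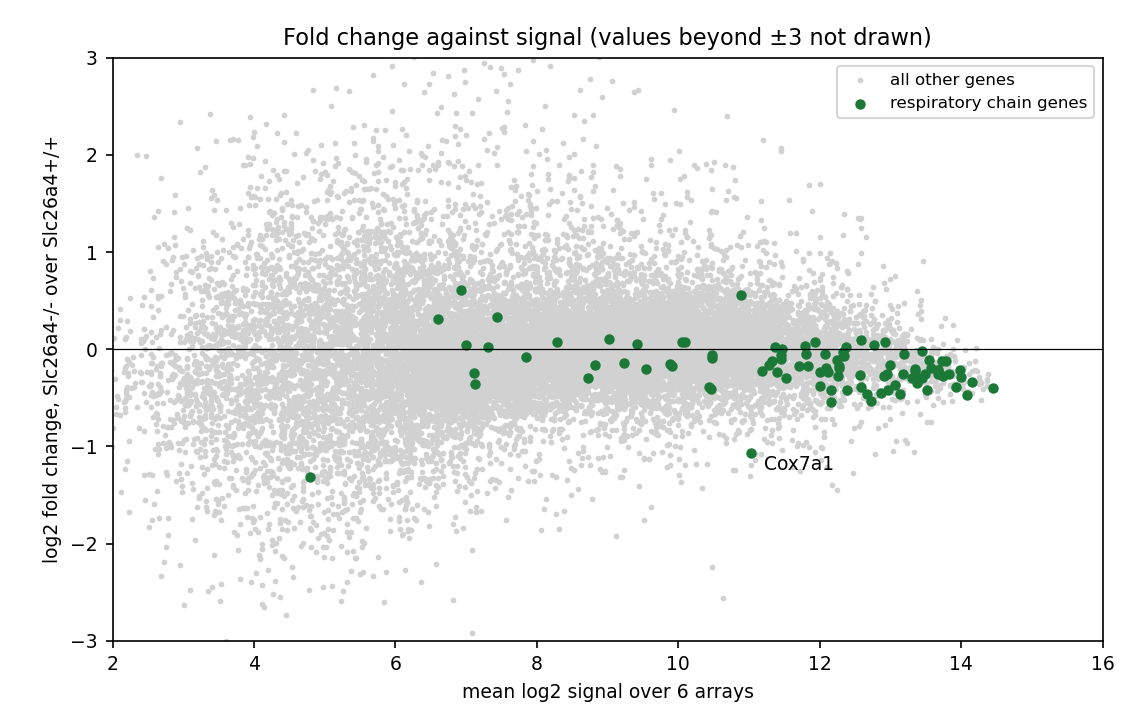
The log2 fold change, Slc26a4-/- over Slc26a4+/+, is plotted against the mean log2 signal over the 6 arrays for all genes, with the 95 members in green. Most members lie at the bright end and below 0, as do most other genes above a mean log2 signal of 13, and Cox7a1 lies below the members of like signal.

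Probe sets of the same gene did not always give the same value. Of the members, 43 had more than 1 probe set above background on all arrays, and in 7 of these the signs of the fold changes differed. The range between probe sets of a gene had a median of 0.19 and a maximum of 0.65. That maximum was in Uqcrb, a small subunit of complex III, for which 1 probe set had 19798, 20047 and 18839 in Slc26a4-/-, against 19146, 25644 and 34866 in Slc26a4+/+. The other had 6449, 6113 and 6364 in Slc26a4-/-, against 6669, 6589.5 and 3412 in Slc26a4+/+. They diverged on Slc26a4+/+ replicate 3, where the first was at its highest and the second at its lowest. Atp5pb diverged there too, and its second probe set had 2553, 1626 and 1683 in Slc26a4-/-, against 3783, 1608 and 1099.9 in Slc26a4+/+. The 3 probe sets of Uqcr10, a small subunit of complex III, had one sign, with -0.74, -0.72 and -0.41, and none passed. Many of these genes have near-identical pseudogenes, and the share of signal from them is unknown.

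Genes around the respiratory chain were taken from lists. The only subunit encoded by mitochondrial DNA on the arrays, ND5 of complex I, had 12334, 10819 and 10834 in Slc26a4-/-, against 13528, 15419 and 21362 in Slc26a4+/+. The groups did not overlap, and the log2 fold change was -0.54 (adjusted p = 0.248, SE 0.18). Of 24 assembly factors of complexes III to V, 16 were negative with a median of -0.07. Of 15 genes of the citric acid cycle and pyruvate dehydrogenase, 11 were negative with a median of -0.08, and of 76 genes of the mitochondrial ribosome, 46 were negative with a median of -0.04. Of 17 carriers and porins, 13 were negative with a median of -0.10. None of these genes passed in either direction. Of all genes, 53.0% were negative. The medians of these lists thus lay nearer to the -0.03 of all genes than the members' -0.20, while the single gene ND5 lay farther. The difference was not tested, and the lists were not matched to the members in brightness. Members with a mean log2 signal between 10 and 11 themselves had a median of -0.06.

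Known regulators of mitochondrial genes also held no gene past the threshold. Of 18 measured, 8 were negative, with a median of 0.07. Esrrg, an estrogen-related receptor, had 572, 326 and 458 in Slc26a4-/-, against 1026, 916 and 743 in Slc26a4+/+. The groups did not overlap, with a log2 fold change of -1.01 (adjusted p = 0.0675, SE 0.23). Esrra, a related receptor, had 1307, 1369 and 1253 in Slc26a4-/-, against 1608, 2432 and 1852 in Slc26a4+/+, again without overlap (log2 fold change -0.56, SE 0.17, adjusted p = 0.179). The coactivator Ppargc1a gave -0.11 (SE 0.21, adjusted p = 0.888) and the mitochondrial transcription factor Tfam 0.16 (SE 0.27, adjusted p = 0.87).

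Cell type markers moved between the genotypes. The summed signal of 7 marginal cell markers, of which 3 were lower past the threshold, was 40069.5 to 41895 in Slc26a4-/-, against 55099.9 to 71200.5 in Slc26a4+/+. Of 9 macrophage markers, 8 were higher, and their sum was 41544 to 42680.0 in Slc26a4-/-, against 7385 to 9469.7 in Slc26a4+/+. Of 6 markers of spiral ligament fibrocytes 4 were higher, of 8 of intermediate cells 2 were higher, and of 4 of basal cells 0 passed. Kcne1, a K+ channel subunit of marginal cells, had 3409, 4065 and 3529 in Slc26a4-/-, against 8864, 7832 and 9900.5 in Slc26a4+/+, and Slc26a4+/+ replicate 1 lay between replicates 2 and 3. Slc12a2 and Atp1b2, the brightest of the marginal cell markers, weigh most in their sum and had another order. Neither passed, with adjusted p of 0.365 and 0.458 from limma. Slc12a2, the basolateral Na+, K+ and Cl- cotransporter, had 18081, 17031 and 17548 in Slc26a4-/-, against 19124, 23553 and 28351 in Slc26a4+/+. Atp1b2, a Na,K-ATPase subunit, had 11544, 12369.7 and 10993 in Slc26a4-/-, against 11746, 15629 and 19492 in Slc26a4+/+, with replicate 1 inside the Slc26a4-/- range as in many members. The part of cell composition in the members' values was not tested.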

How the data were processed

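Stria vascularis RNA, amplified in 2 rounds, was hybridised to 6 arrays. The authors deposited an intensity for each probe set, background-corrected and scaled on each array by GCOS. Its version and scaling target are not stated in the sources used. Scaling adjusts the level of a whole array, so all changes are relative. Mean signals still differed, with 663.7 to 667.9 in Slc26a4-/-, against 662.4, 693.7 and 719.6 in Slc26a4+/+ replicates 1, 2 and 3. The main fit added no further scaling. Detection calls were not used here. Arrays were assigned by their labels, and age and pooling came from the methods. Of 45101 probe sets, 64 controls were left out, 172 signals under 1 were set to 1, and 10 member probe sets with several symbols were not named, of which 0 passed.

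Log2 signals were compared by limma 3.58.1 in R 4.3.3 (lmFit, eBayes with a trend, two-sided, Benjamini-Hochberg over 45037 probe sets, threshold 0.05), with genotype as the factor. Every adjusted p in the text is from limma, except where the methods' t-test is named. Without Slc26a4+/+ replicates 2 and 3 the fit had 1 Slc26a4+/+ array, its spread came from the Slc26a4-/- arrays and limma's prior, and the lone array was assumed to vary like them. Counts and medians were made in Python 3.11.15, and the fit was tested on simulated data. The number of arrays limits the precision. The deviations of arrays of the same number had correlations of 0.257, 0.166 and 0.106 over 19009 probe sets. Among arrays of different numbers, Slc26a4-/- replicate 2 and Slc26a4+/+ replicate 3 had 0.135, above the lowest of these. The other pairs of different numbers were negative. The labels give the numbers and no shared litter or day, so the pairing by number is uncertain. The fit with the replicate number as a block was an alternative.

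The members and lists were chosen with earlier results of these data known. Named genes were those past the threshold, the 3 smallest p of each complex, core subunits and tissue isoforms. Genes of the wider lists and Ndufa8, Ndufb1, Ndufb4, Ndufaf6, Cox6a1, Cox7a2, Cox7c, Uqcr10 and Atp5o were named after their values were seen. A core subunit covered by this rule is not reported here. Alternatives changed the floor, scaling, trend, weights, covariates, probe sets and arrays, and included the methods' t-test on log2 signals paired by replicate number.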

Additional observations from a re-analysis of the deposited data

How the results depend on the processing

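With 3 pools per genotype, leaving out an array decided the counts. The number of lower member genes was 0 to 17 with 1 array left out, against 1 with all arrays, and that of lower probe sets was 0 to 25. Of these settings, the counts were 0 without any 1 of the Slc26a4-/- arrays or Slc26a4+/+ replicate 2, and 17 and 25 without Slc26a4+/+ replicate 1. The 17 genes were 17.9% of the members, beside 2.17% of all genes lower in that setting. The median of complex V was -0.30 to -0.09. Without Slc26a4+/+ replicates 2 and 3, chosen after seeing the data, 2 member genes and 2 probe sets were lower in a fit with 1 Slc26a4+/+ array, whose spread rests on the Slc26a4-/- arrays alone, and the medians were 0.04 for all members, 0.05 for complex I, -0.14 for complex II, -0.06 for complex III, 0.07 for complex IV and 0.08 for complex V. Array weights gave 15 lower genes (15.8%), 30 lower probe sets and 1 higher. They called 5% of all genes lower, beside 0.803% with equal weights, so calls rose outside the members too. Shares of all probe sets are not given for these settings. The study's ratio, without its filter on present calls, gave 18 lower and 1 higher. The counts of lower genes and lower probe sets were 0 without the trend, 0 with the methods' t-test after Benjamini-Hochberg and 0 with the Xist covariate. With that covariate, in which the genotypes did not overlap, the medians were -0.41 for all members and -0.46, -0.19, -0.46, -0.42 and -0.38 for complexes I to V. The Gapdh covariate put complex III at -0.13. Quantile normalization left complexes IV and V at -0.03 and -0.05. The replicate block changed no call, with 1 lower member gene, 1 lower probe set and an adjusted p of 0.0177 from limma for Cox7a1. Cox7a1 was negative under all 21 alternatives. The cause of these changes was not tested. Over 38 named genes and 793 estimates under the alternatives, 51 estimates in 19 genes changed sign, none of them past the threshold.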
